A study of Homo sapiens with 6 samples.

Results

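RMS13-R cells, a derivative of the RMS13 rhabdomyosarcoma line with derived resistance to the HSP70 inhibitor MAL3-101, were compared while under the inhibitor with parental cells that had received only the solvent DMSO. The comparison used 4 of the 6 RNA-seq libraries: RMS13-R with 10 µM MAL3-101 for 9 h (replicates A and B, called the resistant libraries below) and parental RMS13 with DMSO for 9 h (replicates A and B, the vehicle libraries). Parental RMS13 with 10 µM MAL3-101 for 9 h (2 libraries, the treated parental libraries) gave the values set beside them. Every gene listed in the files was considered. Of the 55401 gene names, 15148 reached a mean of 1 TPM in at least 1 of these 3 groups and were tested. The treated parental group counted for this, and 229 tested genes lay below 1 TPM in all 4 libraries compared. TPM is a level corrected for gene length and scaled to the same total in every library. The resistant and vehicle groups differ in cell line and in drug at once, so line and drug cannot be told apart in any difference between them. The treated parental libraries had the same drug, dose and time as the resistant ones. None of the 6 libraries came from RMS13-R cells with DMSO, so levels in RMS13-R cells without the drug are unknown.

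RMS13 is an established human line of alveolar rhabdomyosarcoma, a tumour of cells committed to skeletal muscle, and carries the PAX3-FOXO1 fusion gene. All cultures grew in RPMI medium with 10% fetal bovine serum, and total RNA went into TruSeq paired-end libraries. The labels do not say whether RMS13-R is 1 clone or a pool, nor how resistance was selected. The titles of the vehicle libraries also carry the drug's name, and their descriptions, which name DMSO alone, were followed. The labels leave unsaid if replicates came from different cultures. The p-values below therefore measure the spread between libraries, which may be technical.

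HSP70 chaperones bind unfolded stretches of client proteins and release them in a cycle driven by ATP hydrolysis. J-domain co-chaperones speed up hydrolysis, and exchange factors reset the chaperone. MAL3-101 acts on the step at which a J-domain protein stimulates HSP70. Loss of folding capacity is read out by several gene programs in human cells: the heat shock response under HSF1, which induces inducible HSP70s and their helpers, the unfolded protein response of the endoplasmic reticulum, and the integrated stress response, in which phosphorylated eIF2alpha favours translation of ATF4, an activator of amino acid supply genes and of DDIT3 (CHOP).

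Of the 15148 genes, 7662 passed an adjusted p under 0.05 between the resistant and the vehicle libraries (50.6%). The resistant libraries were higher for 3160 (20.9%) and lower for 4502 (29.7%). All p-values in the text come from limma on log2(TPM + 1) with Benjamini-Hochberg adjustment over all tested genes, and a gene is called when it passes that threshold. A change of at least 2-fold on this scale was called for 560 genes in the higher direction (3.7%) and 796 in the lower (5.25%). The median log2 difference of all tested genes was -0.06. Differences are on the log2(TPM + 1) scale throughout, resistant minus vehicle unless stated, which understates the change of genes at low TPM. Higher genes made up 41.2% of the calls as deposited and 52.0% after median-ratio scaling of the libraries, so the balance of the directions rests on the scaling. Without resistant replicate A 5001 genes were called (2020 higher and 2981 lower) and without resistant replicate B 5013 (1917 and 3096). Protein-coding genes were called in 55.0% of 11780 tested, lincRNAs in 42.0% of 138 and antisense RNAs in 31.0% of 210.

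**Figure D1:**
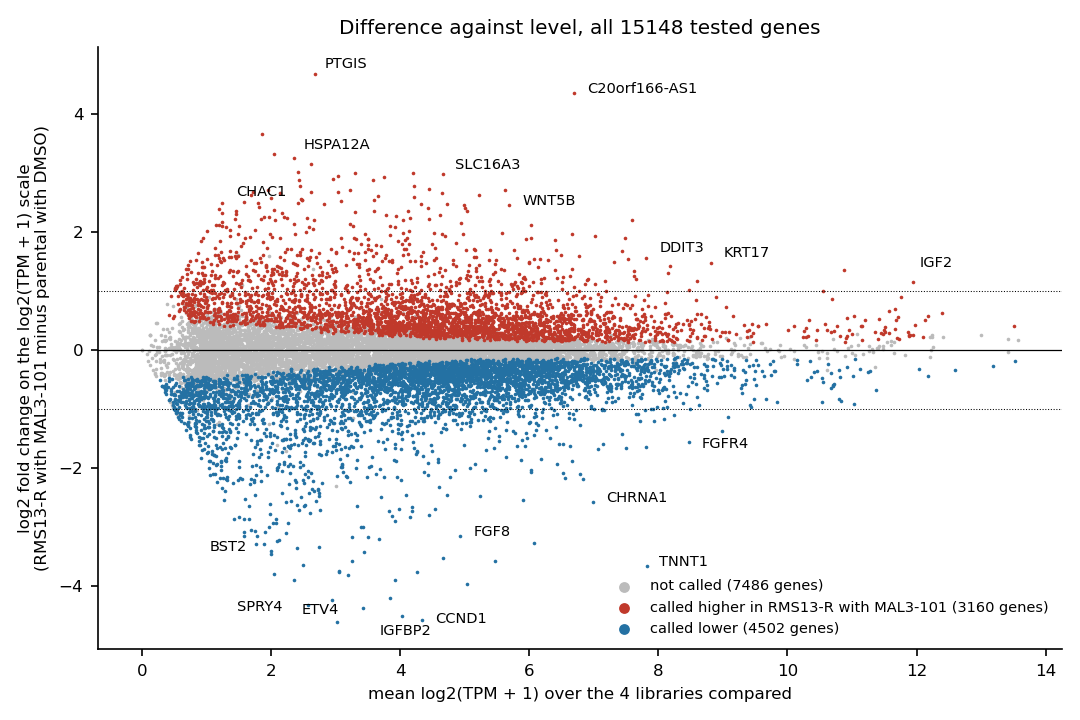
Each point is 1 of the 15148 tested genes. The horizontal axis is its mean log2(TPM + 1) over the 4 libraries compared, the vertical axis its log2 difference, resistant with MAL3-101 minus parental with DMSO. Red points were called higher (3160), blue points lower (4502), grey points not called, and dotted lines mark a 2-fold change. The largest rises lie among genes of low to middle level, and IGF2 stands at the right end among the most abundant genes.

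The 4 libraries agreed closely within groups. The correlation between replicates across genes on the log2(TPM + 1) scale was 0.996 for the resistant pair and 0.990 for the vehicle pair, and 40 and 171 genes stood 2-fold or more apart within those pairs. Between 13918 and 14334 genes reached 1 TPM in each of the 6 libraries. Genes that define the skeletal muscle lineage were present in all libraries: MYOD1, a master regulator of myogenesis, read 484 to 486 TPM in the resistant and 802 to 816 TPM in the vehicle libraries. MYF5 was at 0 in all 6. Markers of blood cells, such as PTPRC (at most 0.06 TPM in any library) and TYROBP (0 in all 6), were near or at 0, and 1 of 12 listed reached the tested level. The share of transcripts from mitochondrial ribosomal RNA was 0.767% to 0.784% in the resistant, 0.533% to 0.565% in the vehicle and 1.92% to 1.97% in the treated parental libraries, and its part in the results was not tested. As in any bulk sample, a smaller number of cells of a type and less RNA per cell cannot be told apart.

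The largest rise was in PTGIS, which encodes prostacyclin synthase. It read 31.6 and 31.6 TPM in the resistant libraries against 0.26 and 0.29 TPM in the vehicle libraries (log2 difference 4.67, SE 0.16, adjusted p = 3.8e-06), and 0.29 and 0.65 TPM in the treated parental libraries. Only the resistant libraries were high, and the groups did not overlap. C20orf166-AS1 read 456 and 481 TPM against 26.5 and 18.1 TPM (4.35, SE 0.15, adjusted p = 4.2e-06). The gene on the opposite strand, C20orf166, read 20.4 and 23.7 against 2.49 and 1.52 TPM, and since the counting is not stated to use strand, reads of this pair cannot be told apart. HSPA12A, a distant member of the HSP70 family, read 15.2 and 14.4 TPM in the resistant libraries, 0.89 and 0.45 TPM in the vehicle libraries and 0.42 and 0.80 TPM in the treated parental libraries (3.25, SE 0.19, adjusted p = 2.4e-05). Its level was thus high in the resistant libraries and below 1 TPM in both parental groups.

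The other leading rises came from varied functions. SMYD1, a muscle methyltransferase needed for sarcomere assembly, read 31.1 and 32.0 against 3.47 and 3.37 TPM (2.88, SE 0.11). SLC16A3, the lactate exporter MCT4, read 68.3 and 71.5 against 10.5 and 6.04 TPM (2.98, SE 0.20), with 25.9 and 27.3 TPM in the treated parental libraries. TLE2, a Groucho-family co-repressor, differed by 2.99, and CACNA2D4, an auxiliary calcium channel subunit, by 3.01. The remaining genes of the 15 were SMIM21, RP4-806M20.5, GCA, MFSD6, PPFIBP2, SH3RF3 and OTUD7A, with differences between 2.88 and 3.66. In all 15 the 2 resistant libraries lay above both vehicle libraries, which the choice of genes required.

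The largest falls were in MFAP2, CCND1, IGFBP2, ETV4 and SPRY4, of which CCND1, ETV4 and SPRY4 are described with the cell cycle and MAP kinase genes. MFAP2, a protein of elastic microfibrils, read 0.31 and 1.05 TPM in the resistant and 42.5 and 36.0 TPM in the vehicle libraries (-4.61, SE 0.20, adjusted p = 9.2e-06). IGFBP2, which binds insulin-like growth factors outside the cell, read 2.70 and 2.15 against 84.0 and 70.5 TPM (-4.51, SE 0.11, adjusted p = 2e-06). L1CAM, a neural adhesion molecule, read 0.75 and 0.80 against 30.7 and 34.5 TPM (-4.24, SE 0.10). The treated parental libraries read 36.5 and 38.5 TPM for MFAP2 and 76.3 and 82.4 TPM for IGFBP2, within the range of the vehicle libraries. For L1CAM they read 26.1 and 24.6 TPM, below both vehicle libraries and far above the resistant ones. AXL, a receptor tyrosine kinase, read 4.22 and 4.19 TPM against 47.7 and 103 TPM (-3.78, SE 0.30, adjusted p = 7.8e-05), so its vehicle libraries were more than 2-fold apart from each other. Among the other leading falls, the secreted glycoprotein LGALS3BP differed by -3.98, the lysosomal protein LAPTM5 by -3.91, the ion transport regulator FXYD5 by -3.80 and the membrane protein EMP1 by -3.76, along with LINC00626, TMEM205 and the endogenous retroviral envelope gene ERVW-1.

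A handful of genes were present in one group and at or near 0 in the other. The small membrane protein gene SMIM21 read 12.01 and 11.75 TPM in the resistant libraries and 0 and 0.04 TPM in the vehicle libraries. In the opposite direction, the cancer-testis antigen gene MAGEA6 was listed at 0 in both resistant libraries and read 7.02 and 8.95 TPM in the vehicle libraries. THY1, a surface glycoprotein of fibroblasts and neurons, was also listed at 0 in both resistant libraries against 5.49 and 7.14 TPM, and the kinase gene NRK read 0.03 and 0.04 against 9.79 and 6.14 TPM. The treated parental libraries held 2.34 to 9.53 TPM of these 3 genes.

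**Figure D2:**
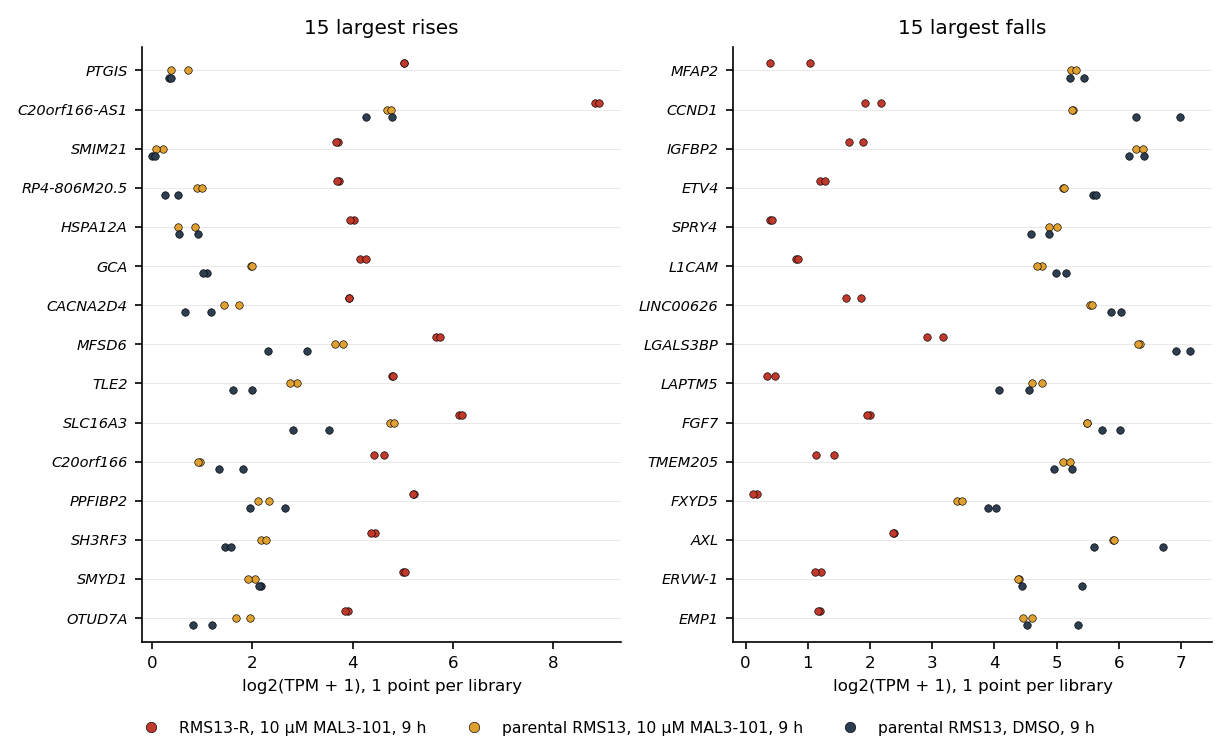
The 15 called genes with the largest rise (left) and fall (right) among genes with a mean of at least 5 TPM in a group and no overlap between the groups. Each point is 1 library on the log2(TPM + 1) axis, red for RMS13-R with MAL3-101, yellow for parental RMS13 with MAL3-101 and dark blue for parental RMS13 with DMSO. In most rows the yellow points lie near the dark ones and the red points stand apart. SLC16A3, MFSD6 and TLE2 are among the rows in which the yellow points lie between them.

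Among genes changed at least 2-fold, several are abundant transcripts. IGF2, the growth factor made by many rhabdomyosarcomas, read 5825 and 5916 TPM in the resistant libraries, 2525 and 2776 TPM in the vehicle libraries and 1860 and 1864 TPM in the treated parental libraries (1.15, SE 0.06, adjusted p = 1.3e-05). STAC3, a component of muscle excitation-contraction coupling, read 2969 and 3053 against 1364 and 1005 TPM (1.36, SE 0.12). LDHB, a subunit of lactate dehydrogenase, differed by 1.003, the keratin KRT17 by 1.48 and the collagen COL5A2 by 1.16. These 5 were higher in the resistant libraries without overlap between the groups. TNNT1, slow skeletal troponin T, went the other way, at 61.9 and 62.8 TPM against 715 and 905 TPM (-3.67, SE 0.10, adjusted p = 2e-06). CD63, a tetraspanin of endosomes and exosomes, differed by -1.14, the imprinted non-coding RNA MEG3 by -1.38 and ID3, an inhibitor of myogenic transcription factors, by -1.005.

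**Figure D3:**
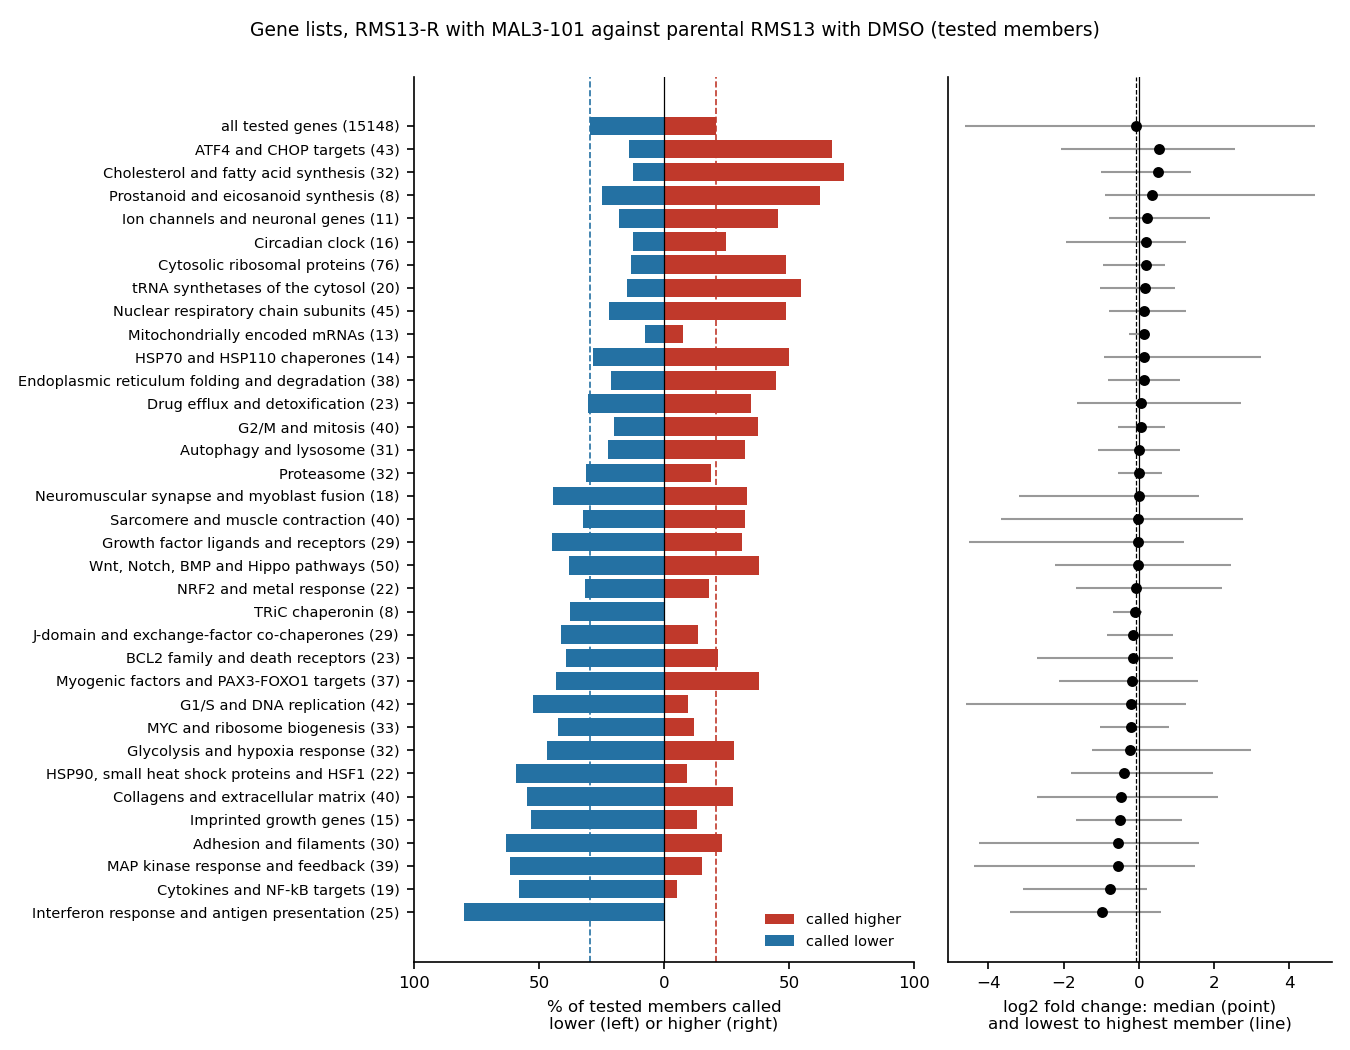
Gene lists described in the text that have at least 8 tested members, and all tested genes in the top row, with the number tested in brackets. Bars on the left give the percentage of members called lower (blue) or higher (red), with dashed lines at the values for all tested genes (29.7% and 20.9%). On the right, the point is the median log2 difference and the line runs from the lowest to the highest member. Cholesterol synthesis and ATF4 and CHOP targets extend furthest to the right of the red line, and interferon response genes furthest to the left of the blue line.

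Targets of ATF4 and CHOP were mostly higher in the resistant libraries. Of 43 tested members, 29 were called higher (67.4%, beside 20.9% of all tested genes) and 6 lower (14.0%, beside 29.7%), with a median of 0.55. By at least 2-fold, 14 of the 43 were higher, beside 3.7% of all tested genes. ATF4 itself read 492 and 515 TPM in the resistant, 249.5 and 248.6 TPM in the vehicle and 656 and 654 TPM in the treated parental libraries (1.01, SE 0.04, adjusted p = 8.6e-06). DDIT3, which encodes the death-promoting factor CHOP, read 370 and 401 TPM, 132 and 128 TPM, and 2260 and 2313 TPM in the same order (1.56, SE 0.05, adjusted p = 3.7e-06). Both factors thus lay above the vehicle level and below the level of treated parental cells, without overlap among the groups. Resistant minus treated parental, ATF4 differed by -0.38 (adjusted p = 0.00031) and DDIT3 by -2.57 (adjusted p = 6.6e-07). The comparisons share the resistant libraries, and their values are given side by side only.

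The same intermediate position was seen at several effectors of the pathway. TRIB3, a pseudokinase that feeds back on the stress response, read 47.5 and 50.5 TPM against 10.4 and 13.2 TPM (1.97, SE 0.10, adjusted p = 1.6e-05), with 284 TPM in both treated parental libraries. ASNS, asparagine synthetase, read 57.6 and 62.2 TPM against 24.98 and 15.01 TPM (1.58, SE 0.19, adjusted p = 0.00055), with 205 and 208 TPM. CHAC1, which degrades glutathione, read 12.6 and 12.2 TPM against 1.71 and 0.91 TPM (2.56, SE 0.16, adjusted p = 3.5e-05), with 34.9 and 36.7 TPM. SLC7A11, the cystine importer, differed by 2.21, SESN2, a stress sensor that restrains mTORC1, by 1.15, ATF3 by 0.92 and PPP1R15A, the subunit that directs dephosphorylation of eIF2alpha, by 0.73. The serine and transsulfuration enzymes PSAT1 (0.88) and CBS (1.71), the amino acid carrier SLC7A5 (1.25) and the hormone gene INHBE (1.97) were also higher and were picked from the list after their values were seen.

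The list did not keep that order throughout: of its 43 tested members, 6 were called lower and 8 were not called against vehicle. VEGFA and STC2 were among the members that departed from it. VEGFA, the angiogenic growth factor, read 73.3 and 73.2 TPM in the resistant, 13.8 and 12.4 TPM in the vehicle and 64.7 and 64.9 TPM in the treated parental libraries. It was higher than vehicle by 2.40 (SE 0.07, adjusted p = 2.1e-06) and differed from the treated parental libraries by 0.17, which did not pass the test (adjusted p = 0.0586). STC2, a secreted glycoprotein, read 30.2 and 31.8 TPM in the resistant against 114 and 155 TPM in the vehicle libraries (-2.07, SE 0.13, adjusted p = 3.4e-05) and 146 and 133 TPM in the treated parental libraries. It was low in the resistant libraries alone.

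Promoter sequences from RefSeq (assembly GRCh38.p14, from which only the letters and positions below are taken) are shown for 3 ATF4-pathway genes that were higher and for 2 HSP70 genes that moved in opposite directions. Each is the 250 bases upstream of the gene's start, 5′ to 3′ on the gene's strand, at chr7:97872409-97872658 (minus strand) for ASNS, chr15:40953221-40953470 (plus) for CHAC1, chr1:212565157-212565406 (plus) for ATF3, chr1:161524290-161524539 (plus) for HSPA6 and chr11:123062137-123062386 (minus) for HSPA8. Capitals mark matches, on either strand, to the C/EBP-ATF composite motif TGATGNAA in the first 3 and to the heat shock element unit GAANNTTC in the last 2.
ASNS: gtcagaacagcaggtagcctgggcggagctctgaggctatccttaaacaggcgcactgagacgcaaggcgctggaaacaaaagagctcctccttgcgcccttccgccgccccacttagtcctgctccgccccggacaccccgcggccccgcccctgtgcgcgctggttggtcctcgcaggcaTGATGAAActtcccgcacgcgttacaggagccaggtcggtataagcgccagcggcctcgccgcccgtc
CHAC1: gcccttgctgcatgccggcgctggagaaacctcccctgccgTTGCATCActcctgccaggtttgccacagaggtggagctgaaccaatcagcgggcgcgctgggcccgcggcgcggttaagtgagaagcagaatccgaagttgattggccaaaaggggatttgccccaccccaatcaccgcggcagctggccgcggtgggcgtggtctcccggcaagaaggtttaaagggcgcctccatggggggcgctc
ATF3: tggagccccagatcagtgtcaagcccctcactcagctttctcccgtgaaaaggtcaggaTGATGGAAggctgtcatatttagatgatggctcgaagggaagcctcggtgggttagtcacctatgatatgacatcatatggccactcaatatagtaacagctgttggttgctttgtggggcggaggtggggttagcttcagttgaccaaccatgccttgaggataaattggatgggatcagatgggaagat
HSPA6: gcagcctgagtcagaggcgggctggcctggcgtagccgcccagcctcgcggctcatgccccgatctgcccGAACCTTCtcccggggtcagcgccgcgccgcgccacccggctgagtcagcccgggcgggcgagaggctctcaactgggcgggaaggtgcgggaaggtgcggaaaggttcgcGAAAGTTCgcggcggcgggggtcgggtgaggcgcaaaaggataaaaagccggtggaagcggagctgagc
HSPA8: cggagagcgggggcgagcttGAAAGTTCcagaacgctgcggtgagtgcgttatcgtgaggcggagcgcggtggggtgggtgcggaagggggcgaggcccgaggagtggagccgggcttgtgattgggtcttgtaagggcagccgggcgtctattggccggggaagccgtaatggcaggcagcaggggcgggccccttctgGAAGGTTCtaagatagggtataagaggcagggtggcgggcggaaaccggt
Counted from the start site, with negative positions upstream, the match begins at -68 in ASNS, -209 in CHAC1 and -191 in ATF3. Those in HSPA6 begin at -180 and -69, and those in HSPA8 at -230 and -50. In ASNS the composite match overlaps 1 match to GAANNTTC, and the other matches shown overlap no match to the other motifs searched.

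The composite motif was found, within 250 bases before to 50 after the start, in 5 of the 31 ATF4 and CHOP targets with a RefSeq promoter (16.1%), against 1.64% of the 9644 tested genes with one and 3.67% of all 27305 promoters. The 5 were ATF3, CHAC1, ASNS and the amino acid transporters SLC3A2 and SLC7A1, all called higher, and 21 of the list's higher members had a promoter. The heat shock unit was found in 4 of 13 HSP70 and HSP110 genes (30.8%: HSPA1A, HSPA1B, HSPA6 and HSPA8), 4 of 26 co-chaperone genes (15.4%), 4.66% of tested genes and 6.87% of all promoters. The unit was thus present in an HSP70 gene that was lower, HSPA8, and in 3 that were higher. The cyclic AMP response element TGACGTCA was found in 3 of 28 MAP kinase response genes (10.7%) against 3.34% of tested genes and 1.98% of all promoters, and the AP-1 motif TGAGTCA in 34 of the 539 genes lower by 2-fold or more (6.31%) against 2.87% of tested genes and 4.92% of all promoters. The AP-1 motif was also found in 4 of the 31 ATF4 and CHOP targets (12.9%). Among all genes called higher with a promoter, 2.02% held the composite motif. A match describes letters only.

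The HSP70 family split by member. Of 14 tested HSP70 and HSP110 genes, 7 were called higher (50%, beside 20.9% of all tested genes) and 4 lower (28.6%, beside 29.7%), with a median of 0.14. The median was 0.27 without vehicle replicate A and 0.05 without vehicle replicate B. HSPA6, a strictly stress-inducible HSP70, read 10.4 and 9.23 TPM in the resistant, 1.80 and 1.16 TPM in the vehicle and 326 and 247 TPM in the treated parental libraries (2.13, SE 0.17, adjusted p = 7.4e-05). HSPA1B, the main inducible HSP70, read 189 and 185 TPM against 130 and 128 TPM (0.54, SE 0.08, adjusted p = 0.00173), with 2532 and 2083 TPM in the treated parental libraries. Its near-identical copy HSPA1A read 11.3 and 10.9 against 8.05 and 6.85 TPM (0.53), a call lost without resistant replicate A, and reads of the copies may be split between them. Inducible HSP70 RNA was therefore above the vehicle level, and the treated parental libraries lay far above both.

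The constitutive members HSPA8 and HSPA9 were lower. HSPA8, the abundant cognate HSC70 of the cytosol, read 1340 and 1279 TPM in the resistant and 1868 and 2251 TPM in the vehicle libraries (-0.65, SE 0.09, adjusted p = 0.00083). The treated parental libraries read 1259 and 1188 TPM, and the resistant libraries differed from them by 0.10 (adjusted p = 0.368). HSPA9, the mitochondrial HSP70, read 188.5 and 190.5 TPM against 297 and 313 TPM (-0.68), and the HSP110 exchange factors HSPH1 (-0.93) and HSPA4 (-0.79) were lower too. In the endoplasmic reticulum, HSPA5 (BiP) read 746 and 753 against 652 and 624 TPM (0.23), a call lost without resistant replicate B, and its partner HYOU1 differed by 0.58. HSPA9 and HYOU1 were named after their values were seen.

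Of 29 tested J-domain and exchange-factor genes, the helpers of HSP70, 12 were called lower (41.4%, beside 29.7% of all tested genes) and 4 higher (13.8%, beside 20.9%, and 2 without either resistant library), with a median of -0.15. DNAJB1, the J-domain partner of inducible HSP70, read 206 and 201 TPM in the resistant and 207 and 206 TPM in the vehicle libraries (-0.02, SE 0.07, adjusted p = 0.845), against 1475 and 1284 TPM in the treated parental libraries. BAG3, the exchange factor that links HSP70 to autophagy, read 24.6 and 23.6 TPM against 31.3 and 37.3 TPM (-0.49, SE 0.10, adjusted p = 0.0056), with 258 and 223 TPM. Neither of these heat shock targets was above the vehicle level. DNAJB6 (-0.84), DNAJB4 (-0.63) and the ubiquitin ligase STUB1, also known as CHIP (-0.78), were lower, while DNAJB2, a neuronal and muscle J-domain protein, was higher (0.91).

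Of 22 tested genes of the HSP90, small heat shock protein and HSF group, 13 were called lower (59.1%, beside 29.7% of all tested genes) and 2 higher (9.09%, beside 20.9%), with a median of -0.39. HSP90AA1, the inducible HSP90, read 1146 and 1094 TPM against 1519 and 1556 TPM (-0.46), and the constitutive HSP90AB1 differed by -0.38, both named after their values were seen. The small heat shock proteins HSPB8 (-1.81), HSPB2 (-1.58) and CRYAB (-1.51) were lower, and HSPB7, a muscle member of the family, was higher at 201 and 199 TPM against 76.14 and 33.02 TPM (1.97, SE 0.32, adjusted p = 0.00183). HSF1 itself read 67.6 and 70.7 against 59.7 and 66.5 TPM and did not pass the test (0.13, adjusted p = 0.136). Without vehicle replicate B the HSF1 difference was 0.21, so that result leaned on a single vehicle library. In the cytosolic chaperonin TRiC, which folds actin and tubulin, 3 of 8 subunits were called lower (37.5%, beside 29.7% of all tested genes). They were CCT5 (-0.69), CCT2 (-0.53) and TCP1 (-0.32), and the other 5 did not pass the test. The median was -0.11 as deposited and -0.02 after median-ratio scaling.

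**Figure D4:**
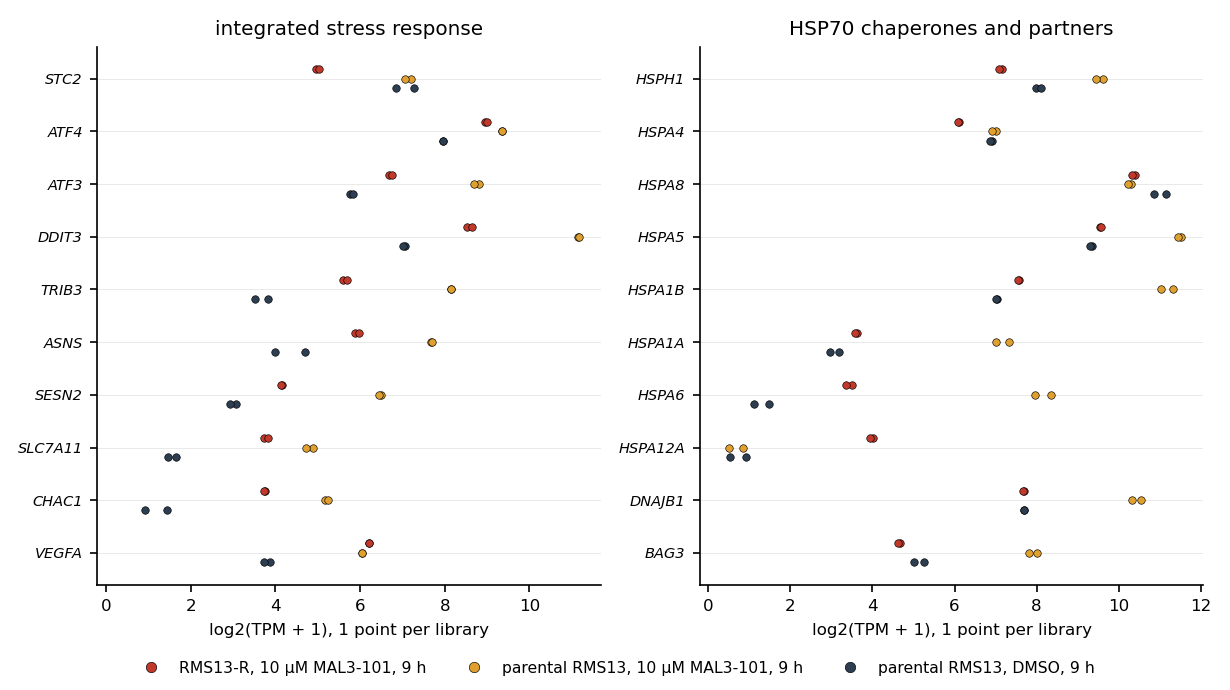
Genes of the integrated stress response (left) and HSP70 chaperones with 2 partners (right). Each point is 1 library on the log2(TPM + 1) axis, red for RMS13-R with MAL3-101, yellow for parental RMS13 with MAL3-101 and dark blue for parental RMS13 with DMSO. For ATF4, DDIT3, TRIB3 and ASNS the red points lie between the dark and the yellow ones, for DNAJB1 they lie on the dark ones, and for STC2 and HSPA12A they stand apart from both.

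In the endoplasmic reticulum list, 17 of 38 tested genes were called higher (44.7%, beside 20.9% of all tested genes) and 8 lower (21.1%), with a median of 0.13. XBP1, a transcription factor of the unfolded protein response, read 100 and 99.3 TPM against 54.5 and 51.5 TPM (0.90, SE 0.05, adjusted p = 2e-05), with 353 and 364 TPM in the treated parental libraries. HERPUD1, a component of degradation from the reticulum, differed by 0.79, the folding factor CRELD2 by 0.93 and SEC24D, a coat protein of export vesicles, by 1.09. CANX, the lectin chaperone calnexin, was lower (-0.80), and its treated parental level, 595 to 640 TPM, was above the vehicle level of 404 to 414 TPM. Among 20 cytosolic aminoacyl-tRNA synthetases, 11 were called higher (55.0%, beside 20.9% of all tested genes) and 3 lower (15%, beside 29.7%), with a median of 0.18. CARS, the cysteine enzyme, was highest by difference (0.96), and HARS (-1.02), RARS (-0.74) and QARS (-0.60) were the 3 lower members.

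Proteasome genes were called about as often as genes at large: of 32, 6 were higher (18.8%, beside 20.9% of all tested genes) and 10 lower (31.3%, beside 29.7%), with a median of 0.00. With median-ratio scaling the counts were 9 and 7, and 10 were higher without vehicle replicate B. PSMB1 (0.62) and PSMD14 (0.52) were higher, and PSMD6 (-0.54) and PSMC2 (-0.43) were lower. In the autophagy and lysosome list 10 of 31 were called higher (32.3%) and 7 lower (22.6%, and 4 genes without resistant replicate A), with a median of 0.02. SQSTM1, the cargo receptor p62, read 65.6 and 68.2 TPM in the resistant against 130 and 155 TPM in the vehicle and 153 and 149 TPM in the treated parental libraries (-1.07, SE 0.08, adjusted p = 6.6e-05). The resistant libraries alone were low. NPC1, the lysosomal cholesterol exporter, was higher (1.10), as was GABARAPL1 (0.70), a protein of autophagosome membranes, and the protease ATG4A was lower (-0.96). Resistant minus treated parental, NPC1 (-0.09, adjusted p = 0.297) and GABARAPL1 (0.09, adjusted p = 0.558) did not pass the test. ATG4A was lower there too (-1.19, adjusted p = 0.00013).

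The oxidative and metal stress list of 22 genes had 4 called higher (18.2%, beside 20.9% of all tested genes) and 7 lower (31.8%, beside 29.7%, and 12 genes without vehicle replicate A), and its median of -0.08 went to 0.00 after median-ratio scaling. Metallothionein MT2A read 74.7 and 73.2 TPM against 192 and 298 TPM (-1.68), the haem oxygenase HMOX1 differed by -1.07, and the zinc exporter SLC30A1 by 0.996. Of 23 BCL2 family and death receptor genes 9 were called lower (39.1%, and 6 genes without resistant replicate B) and 5 higher (21.7%, a share near that of all tested genes, and 1 gene without resistant replicate A and 3 without B), with a median of -0.15. CFLAR, an inhibitor of death receptor signalling, read 22.3 and 24.7 TPM against 11.8 and 12.4 TPM and was higher (0.90, SE 0.09, adjusted p = 0.0002). Its treated parental libraries read 24.2 and 22.0 TPM, and the resistant libraries differed from them by 0.02 (adjusted p = 0.85). The survival gene MCL1 was lower (-0.52), as was PMAIP1, which encodes the MCL1 antagonist NOXA (-0.56, against 31.3 to 31.7 TPM in the treated parental and 9.64 to 10.6 TPM in the vehicle libraries). BCL2 did not pass the test (-0.28, adjusted p = 0.157).

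Genes that report MAP kinase activity were mostly lower. Growth factor receptors drive RAS, RAF, MEK and ERK kinases, which induce immediate-early factors, the ETS factors of the PEA3 group, and feedback inhibitors of the SPRY and DUSP families. Of 39 tested genes, 24 were called lower (61.5%, beside 29.7% of all tested genes) and 6 higher (15.4%, beside 20.9%), with a median of -0.56. By at least 2-fold, 15 of the 39 were lower, beside 5.25% of all tested genes. ETV4 read 1.29 and 1.41 TPM in the resistant, 46.8 and 48.7 TPM in the vehicle and 33.3 and 33.7 TPM in the treated parental libraries (-4.38, SE 0.08, adjusted p = 6.8e-07). SPRY4 read 0.31 and 0.34 TPM against 23.0 and 28.4 TPM (-4.33, SE 0.13, adjusted p = 2.3e-06), with 31.2 and 28.3 TPM. ETV1 (-3.17) and ETV5 (-3.01), the other PEA3 factors, and DUSP6, an ERK phosphatase named after its values were seen (-2.67), were lower as well. In each of these genes the resistant libraries lay below both parental groups.

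The immediate-early genes did not follow the ETS factors as a block. EGR1 read 3.69 and 3.90 TPM in the resistant and 8.06 and 11.2 TPM in the vehicle libraries (-1.14, SE 0.13, adjusted p = 0.00043), against 478 and 456 TPM in the treated parental libraries. FOS read 4.41 and 3.66 TPM against 2.26 and 2.25 TPM (0.63, SE 0.11, adjusted p = 0.00339), with 73.4 and 65.8 TPM in the treated parental libraries. EGR1 was thus below and FOS above the vehicle level, and both were far below treated parental cells. MYC read 36.1 and 36.6 against 31.3 and 40.0 TPM and did not pass the test (0.04, adjusted p = 0.783). The MYC difference was -0.13 without vehicle replicate A and 0.21 without vehicle replicate B.

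Upstream, ligands and receptors were divided. Of 29 tested growth factor genes, 13 were called lower (44.8%, beside 29.7% of all tested genes), 11 of them by at least 2-fold, and 9 higher (31.0%, beside 20.9%, and 5 genes without resistant replicate A and 14 without vehicle replicate A). Of all tested genes, 5.25% were lower by at least 2-fold. The median of the list was -0.01, 0.07 after median-ratio scaling, 0.26 without vehicle replicate A and -0.51 without vehicle replicate B. The ligand FGF8 read 9.01 and 9.46 TPM in the resistant against 87.6 and 92.8 TPM in the vehicle libraries (-3.16, SE 0.06, adjusted p = 6.8e-07), and the ligand FGF7 read 3 and 2.85 against 52.1 and 63.8 TPM (-3.90, SE 0.10, adjusted p = 2e-06). The receptor FGFR4, a target of PAX3-FOXO1, read 199 and 211 against 573 and 647 TPM (-1.57, SE 0.07, adjusted p = 8.5e-06). The ligands were low in the resistant libraries alone, since the treated parental libraries held 71.1 to 72.1 TPM of FGF8 and 43.7 to 44.0 TPM of FGF7. Other receptors went up: FGFR1 read 87.4 and 95.7 against 43.7 and 35.1 TPM (1.20), FGFR2 differed by 0.95 and ERBB2 by 1.04, while the HGF receptor MET was lower (-1.05). These 4 were named after their values were seen. IGFBP7 was lower as well (-2.56), at 1.64 and 1.68 against 10.1 and 21.2 TPM. Its treated parental libraries read 3.51 and 3.2 TPM. The resistant libraries differed from these by -0.71, which did not pass the test (adjusted p = 0.0703).

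Many regulators of entry into S phase were lower. D-type cyclins with CDK4 or CDK6 inactivate the retinoblastoma protein and release E2F targets, which include the replication genes. Of 42 tested G1/S genes, 22 were called lower (52.4%, beside 29.7% of all tested genes) and 4 higher (9.52%, beside 20.9%), with a median of -0.21. Leaving out a single library gave 17 to 28 lower and 2 to 7 higher. CCND1, cyclin D1, read 3.50 and 2.78 TPM in the resistant, 76.3 and 126 TPM in the vehicle and 37.3 and 36.8 TPM in the treated parental libraries (-4.58, SE 0.21, adjusted p = 1.1e-05). CDK6 read 23.9 and 23.5 against 73.0 and 81.2 TPM (-1.66, SE 0.07, adjusted p = 8.8e-06). CCND3, cyclin D3, read 98.2 and 101 TPM against 207 and 201 TPM (-1.03, SE 0.04), and its treated parental level of 108 to 109 TPM was close to the resistant one. CDKN1B, the CDK inhibitor p27, rose, at 51.4 and 51.5 TPM against 22.1 and 19.9 TPM (1.25, SE 0.07, adjusted p = 2.3e-05). The related inhibitor CDKN1A, p21, read 75.3 and 78.5 against 68.2 and 83.1 TPM, so the groups overlapped (0.03, adjusted p = 0.805). Without vehicle replicate B the CDKN1A difference was 0.17, so that result leaned on a single vehicle library.

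Of 40 tested G2/M genes, 15 were called higher (37.5%, beside 20.9% of all tested genes) and 8 lower (20%, beside 29.7%), with a median of 0.05, and the counts leaned on single libraries: 9 were higher without either resistant library, and 3, 5 and 13 were lower without resistant replicate B, resistant replicate A and vehicle replicate B. The mitotic kinase AURKA read 274 and 269 against 176 and 161 TPM (0.69, SE 0.06, adjusted p = 9.5e-05). The kinetochore genes NDC80 (0.63) and NUF2 (0.57) and the checkpoint kinase TTK (0.57) were higher as well.

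**Figure D5:**
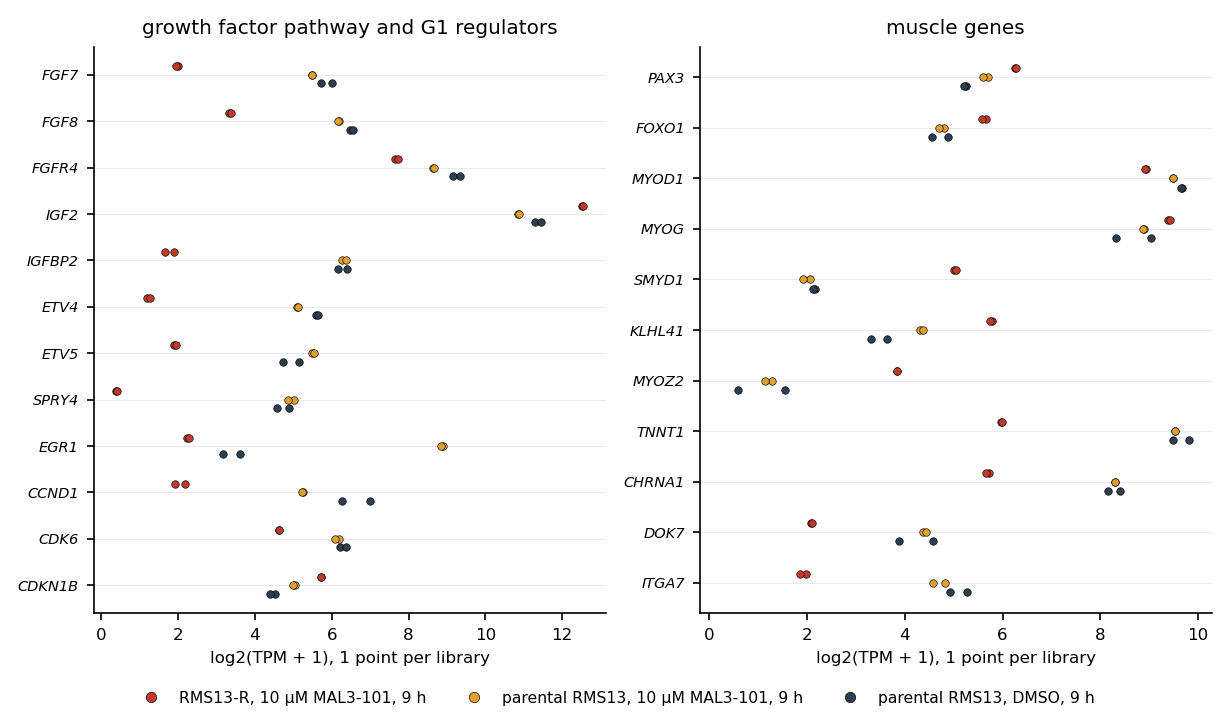
Growth factor pathway genes and G1 regulators (left) and muscle genes (right). Each point is 1 library on the log2(TPM + 1) axis, red for RMS13-R with MAL3-101, yellow for parental RMS13 with MAL3-101 and dark blue for parental RMS13 with DMSO. FGF7, FGF8, ETV4, ETV5, SPRY4 and CCND1 show red points at the left of both parental groups, and EGR1 shows yellow points far to the right. In the muscle panel SMYD1, KLHL41 and MYOZ2 have red points at the right and TNNT1, CHRNA1, DOK7 and ITGA7 at the left.

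Of 33 tested MYC network and ribosome biogenesis genes, 14 were called lower (42.4%, beside 29.7% of all tested genes) and 4 higher (12.1%, beside 20.9%, and 1 gene without either resistant library), with a median of -0.22. The nucleolar proteins NPM1, at 1337 and 1338 against 2352 and 2426 TPM (-0.84), and NOLC1 (-1.02) were lower, as were the pre-ribosomal RNA factors RRP9 (-0.91) and NOP16 (-0.85). MYCN, a fusion target, did not pass the test (-0.07, adjusted p = 0.268). Of 76 cytosolic ribosomal protein genes, 37 were called higher (48.7%, and 24 genes without resistant replicate B) and 10 lower (13.2%), with a median of 0.18. Without vehicle replicate B 16 were lower and the median was 0.11. RPL37A (0.70) and RPL31 (0.65) led the higher members, and RPS26 (-0.96) and RPL29 (-0.62) the lower ones. Ribosomal protein genes have many processed copies in the genome, so single values are uncertain.

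Nuclear genes of the respiratory chain were called higher in 22 of 45 (48.9%, beside 20.9% of all tested genes) and lower in 10 (22.2%, beside 29.7%), with a median of 0.15. The complex I subunits NDUFS4, at 155 and 151 against 59.8 and 67.0 TPM (1.26), and NDUFA9 (0.998) and the complex II subunit SDHC (0.74) were higher, and NDUFA4 was lower (-0.79). Of the 13 mitochondrially encoded mRNAs, 1 was called higher (7 without vehicle replicate B) and 1 lower (7.69% each). In the glycolysis and hypoxia list 15 of 32 were called lower (46.9%, and 9 genes without resistant replicate B) and 9 higher (28.1%), with a median of -0.24 (-0.11 without vehicle replicate A). PGK1, phosphoglycerate kinase, read 205 and 207 TPM against 455 and 434 TPM (-1.11, SE 0.05, adjusted p = 8.5e-06), and the oxygen sensor EGLN3 was lower (-1.25). The higher members included SLC16A3, LDHB and VEGFA, given above.

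Most sterol and fatty acid synthesis genes were higher. Under low membrane cholesterol, SREBP factors leave the endoplasmic reticulum and switch on the enzymes of the mevalonate and sterol pathway. Of 32 tested genes, 23 were called higher (71.9%, beside 20.9% of all tested genes) and 4 lower (12.5%, beside 29.7%), with a median of 0.52. MVD, mevalonate diphosphate decarboxylase, read 57.0 and 58.5 TPM in the resistant, 19.8 and 23.1 TPM in the vehicle and 28.9 and 29.1 TPM in the treated parental libraries (1.39, SE 0.08, adjusted p = 2.5e-05). HMGCS1, which makes the precursor of mevalonate, read 178 and 179 against 70.0 and 85.9 TPM (1.19, SE 0.09), with 132 and 125 TPM in the treated parental libraries. SC5D (1.20) and DHCR7 (1.09), which act at the end of the pathway, were higher, and the resistant libraries lay above both parental groups in all 4 genes. The factor SREBF2 was also higher (0.92) and the fatty acid elongase ELOVL6 lower (-0.996), both named after their values were seen.

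Interferon response and antigen presentation genes were lower. Type I interferon signalling sets the level of antiviral proteins and, with NLRC5 and IRF1, of the peptide-loading machinery. Of 48 genes listed, 25 were tested, and 20 of these were called lower (80.0%, beside 29.7% of all tested genes), while the other 5 did not pass the test. By at least 2-fold, 11 of the 25 were lower, beside 5.25% of all tested genes. The median of the list was -0.96. BST2, tetherin, read 0.22 and 0.22 TPM in the resistant libraries against 8.37 and 17.1 TPM in the vehicle libraries (-3.42, SE 0.29, adjusted p = 0.00011). TAPBP, the peptide-loading factor tapasin, read 1.20 and 1.47 against 11.8 and 12.6 TPM (-2.50, SE 0.12), and IFITM3, which blocks viral entry, 51.5 and 53.3 against 186 and 320 TPM (-2.19, SE 0.21). In these 3 genes the treated parental libraries, at 8.97 to 11.7, 6.81 to 6.88 and 163 to 165 TPM, lay well above the resistant ones. IFI44 was lower (-3.06), and of members named after their values were seen, the class I light chain B2M read 501 and 492 against 968 and 976 TPM (-0.97), and ISG15 (-1.74) and TAP2 (-1.19) were lower too.

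Of 19 tested cytokine and NF-kB target genes, 11 were called lower (57.9%, beside 29.7% of all tested genes, and 7 genes without resistant replicate B) and 1 higher (5.26%, beside 20.9%), with a median of -0.77 (-0.50 without vehicle replicate B). IL11, a cytokine of the IL6 family, read 15.2 and 14.9 TPM against 65.0 and 121 TPM (-2.48, SE 0.24, adjusted p = 0.00019), with 172 and 168 TPM in the treated parental libraries. The chemokine CCL20 was listed at 0 in both resistant libraries against 5.19 and 4.55 TPM, and CCL2 read 0.16 and 0.42 against 6.67 and 14.5 TPM. The 3 cytokine genes were low in the resistant libraries and present in both parental groups.

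Myogenic regulators were divided. PAX3-FOXO1 drives a set of targets that includes MYOD1, FGFR4 and MYCN while the cells stop short of terminal muscle differentiation. Of 37 tested regulators and targets, 14 were called higher (37.8%, beside 20.9% of all tested genes) and 16 lower (43.2%, beside 29.7%). The median was -0.19, -0.11 after median-ratio scaling, -0.04 without vehicle replicate A and -0.31 without vehicle replicate B. PAX3 read 75.3 and 76.7 TPM in the resistant, 37.0 and 35.8 TPM in the vehicle and 51.4 and 47.4 TPM in the treated parental libraries (1.04, SE 0.06, adjusted p = 2.5e-05). FOXO1 read 49.3 and 46.9 against 28.6 and 22.5 TPM (0.90, SE 0.11, adjusted p = 0.00058), and gene-level values do not separate the fusion from the normal genes. Both fusion partners were highest in the resistant libraries. MYOD1, given above, was lower (-0.74, SE 0.04, adjusted p = 1.9e-05). MYOG, which starts terminal differentiation, read 670 and 688 against 522 and 320 TPM (0.73, adjusted p = 0.0162), a call lost without either resistant library, and differed by 0.38 without vehicle replicate B. ID1 (-1.63) was lower and FOXF1 (1.56) higher, as were MEF2C (1.40) and EYA2 (1.21), named after their values were seen.

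Of 40 tested contractile genes, 13 were called higher and 13 lower (32.5% each, beside 20.9% and 29.7% of all tested genes), and 13 and 11 after median-ratio scaling. The median was -0.01 as deposited, 0.05 after that scaling, 0.14 without vehicle replicate A and -0.23 without vehicle replicate B. MYOZ2, a Z-disc protein, read 13.3 and 13.4 against 1.91 and 0.51 TPM (2.78, SE 0.28, adjusted p = 0.00023), and KLHL41, a stabiliser of thin filaments, 53.7 and 52.8 against 11.5 and 8.91 TPM (2.29, SE 0.11, adjusted p = 1.3e-05). The intermediate filament desmin, DES, was higher by 0.37, and RYR1, the calcium release channel of the sarcoplasmic reticulum, named after its values were seen, by 1.38. Against these, TNNT1 was lower as described, and the small muscle protein SMPX by -1.66. Sarcomere genes therefore did not move in one direction.

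At the neuromuscular synapse and in myoblast fusion, 8 of 18 tested genes were called lower (44.4%, beside 29.7% of all tested genes) and 6 higher (33.3%, beside 20.9%). By at least 2-fold, 7 of the 18 were lower, beside 5.25% of all tested genes. The median of the list was -0.01 as deposited, 0.08 after median-ratio scaling and -0.10 without vehicle replicate B. CHRNA1, the alpha subunit of the acetylcholine receptor, read 52.1 and 49.9 TPM in the resistant against 285 and 337 TPM in the vehicle and 315 and 312 TPM in the treated parental libraries (-2.58, SE 0.08, adjusted p = 2.5e-06). DOK7, the activator of the synaptic kinase MuSK, read 3.24 and 3.28 against 22.8 and 13.8 TPM (-2.14), and ITGA7, the laminin-binding integrin of muscle, 2.94 and 2.63 against 29.4 and 37.7 TPM (-3.18). MYOF, a membrane repair protein of fusing myoblasts, was lower (-2.25). In CHRNA1, DOK7 and ITGA7 the resistant libraries lay below both parental groups.

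Among Wnt, Notch, BMP and Hippo genes, 19 of 50 were called higher and 19 lower (38.0% each, beside 20.9% and 29.7% of all tested genes, and 12 lower without resistant replicate B), with a median of -0.02 that became 0.06 after median-ratio scaling. The ligand WNT5B read 118 and 123 TPM against 26.3 and 16.7 TPM (2.46, SE 0.17, adjusted p = 5e-05), and AXIN2, a feedback target of beta-catenin, 32.0 and 31.7 against 11.3 and 6.21 TPM (1.80, SE 0.23, adjusted p = 0.00061). Both were above the treated parental libraries, at 35.7 to 37.3 and 11.99 to 14.29 TPM. TGFBI, a matrix protein induced by TGF-beta, was lower (-2.22).

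Of 40 tested collagen and matrix genes 22 were called lower (55.0%, beside 29.7% of all tested genes) and 11 higher (27.5%, beside 20.9%), with a median of -0.48. By at least 2-fold, 12 of the 40 were lower, beside 5.25% of all tested genes. THBS1, thrombospondin, read 8.88 and 7.52 TPM against 40.9 and 84.1 TPM (-2.70), COL18A1, the source of endostatin, differed by -2.39 and COL1A1 by -1.73. COL3A1, a fibrillar collagen, rose, at 134 and 135 TPM against 28.5 and 32.3 TPM (2.11, SE 0.07, adjusted p = 4.5e-06), with 15.2 to 16.0 TPM in the treated parental libraries. Of 30 adhesion and filament genes 19 were called lower (63.3%) and 7 higher (23.3%), with a median of -0.56. By at least 2-fold, 11 of the 30 were lower, beside 5.25% of all tested genes. Beside L1CAM and ITGA7, the integrin ITGA6 was lower (-2.36). CDH2, N-cadherin, named after its values were seen, was higher at 33.7 and 33.8 against 11.0 and 10.1 TPM (1.59).

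Markers of other cell types were read beside these lists. Of all tested genes, 20.9% were called higher and 29.7% lower, and few markers of each type were tested. Of 16 epithelial markers 5 were tested. KRT18 (-2.87), KRT7 (-2.05), EPCAM (-1.90) and KRT8 (-1.51) were called lower, and OCLN was called higher (0.42), a call lost without resistant replicate A. The list summed to 19.8 to 21.7 TPM in the resistant and 30.1 to 40.6 TPM in the vehicle libraries, and KRT5 was at 0 in all 6. Of 12 fibroblast markers 6 were tested, 4 lower (THY1, COL1A1, PDGFRA and PDGFRB) and 2 higher (COL3A1 among them), with sums of 144 to 145 against 58.3 to 63.0 TPM, nearly all of the resistant sum being COL3A1. Of 10 endothelial markers 3 were tested: the receptor TEK was higher at 18.9 and 20.9 against 2.17 and 2.38 TPM (2.67), its relative TIE1 lower (-0.95), and EGFL7, whose call was lost on leaving out a library, at 0.60. CDH5 and VWF stayed at or below 0.24 TPM in every library. The part of other cells in the matrix and adhesion results was not tested.

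Of 23 tested genes of drug handling, 8 were called higher (34.8%, beside 20.9% of all tested genes) and 7 lower (30.4%, near the 29.7% of all tested genes). The median was 0.06, 0.15 without vehicle replicate A and -0.02 without vehicle replicate B. ABCA2, a lysosomal lipid transporter, read 22.1 and 23.7 TPM in the resistant against 2.44 and 2.86 TPM in the vehicle libraries (2.71, SE 0.12, adjusted p = 1.1e-05). ABCC1, the efflux pump MRP1, read 38.1 and 37.9 against 18.7 and 18.1 TPM (1.01, SE 0.07, adjusted p = 3.9e-05), and both were above the treated parental libraries, at 3.52 to 4.16 and 21.9 to 23.0 TPM. ABCB1, the efflux pump P-glycoprotein, stayed at or below 0.13 TPM in every library and was not tested. The glutathione transferases GSTM2 (1.503) and GSTP1 (0.85, named after its values were seen) were higher, and the retinal dehydrogenase ALDH1A1 (-1.65) and the methyltransferase NNMT (-1.50) were lower. Of 8 tested prostanoid and eicosanoid genes 5 were called higher (62.5%, and 3 genes without either resistant library) and 2 lower (25%), with a median of 0.36. Beside PTGIS, PTGR1, a reductase that inactivates prostaglandins and leukotrienes, read 308 and 312 against 98.4 and 94.3 TPM (1.68, SE 0.05, adjusted p = 2.3e-06), with 108 to 114 TPM in the treated parental libraries.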

How the data were processed

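RNA-seq libraries of parental RMS13 and RMS13-R cells were deposited as TPM per gene name, 1 file per library. Per the submitters' processing notes, the authors' processing named RSEM, DESeq and the hg19 build, with no versions given. How these were used, and whether counting kept strand, is not given in the sources used here. TPM keeps no depth, so the depth behind each value is unknown and no count test was run. Values were log2-transformed with a pseudocount of 1, and genes with a mean of at least 1 TPM in any of the 3 groups were tested. limma 3.58.1 in R 4.3.3 was fitted to the 6 libraries as 3 groups, with a trend of the variance on the mean. With 2 libraries per group this left 3 residual degrees of freedom (prior 4.165), and the median SE of a difference was 0.105. Genes were called at a Benjamini-Hochberg adjusted p under 0.05, and the script was tested on simulated data.

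Alternatives were other pseudocounts, filters and scalings, mitochondrial genes left out, protein-coding genes alone, a fit of the 4 libraries compared, no trend, a test against a fold of 1.5, the replicate block and leaving out each library. The letters A and B were not used to pair the libraries in the main fit. The members and gene lists were chosen with earlier results of these data known, and parts of the scripts and lists came from that earlier work. The text names the 15 largest rises and falls among called genes with at least 5 TPM and no overlap, up to 4 called members of each list with the largest change, a set of stress, cell cycle and muscle genes in every case, genes at 5 TPM or more in one group and 0.1 TPM or less in the other, and the 10 most abundant genes changed 2-fold or more. Genes named outside that rule were chosen after their values were seen. Some items named by the rule are not reported here. A list is described by its counts and its median beside those of all tested genes. Promoter sequences came from RefSeq (GRCh38.p14), matched by symbol for 9644 of the 15148 tested genes (63.7%), and gene types matched 12685 (83.7%).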

Additional observations from a re-analysis of the deposited data

How the results depend on the processing

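The number of genes called (7662) kept within 1.5 times its value under the other pseudocounts, filters, scalings and fits, except that testing against a fold of 1.5 left 1244 genes (492 higher and 752 lower). A pseudocount of 0.1 raised the genes lower by at least 2-fold to 1246. Leaving out 1 library at a time gave 5001 to 8640 calls, 1917 to 3931 higher and 2981 to 5069 lower. With the replicate letter as a replicate block 7492 genes were called, 7303 of them also called without it. A and B deviations correlated at -0.020 between resistant and vehicle libraries, so no shift common to a letter was seen. This does not tell whether libraries with the same letter were prepared together. MYC, which was not called, went from 0.04 to -0.13 without parental DMSO replicate A and to 0.21 without replicate B. Its direction thus rested on the vehicle library kept. Over 206 named genes and 18 settings, 3566 values kept direction and side of the threshold, 115 lost the call and 4 gained it. The cause was not tested. With 2 libraries a group and no counts, precision is limited for low genes and small differences, and no setting separates cell line from drug.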

Other observations

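Imprinted growth genes, outside the lists above, had 8 of 15 tested called lower (53.3%, beside 29.7% of all tested genes) and 2 higher (13.3%, beside 20.9%), with a median of -0.49. After median-ratio scaling 7 were lower, and without either resistant library 6 were lower and 1 higher. PEG10, a gene derived from a retrotransposon, read 99.5 and 102 TPM against 327 and 318 TPM (-1.67, SE 0.04, adjusted p = 2e-06 with limma), and the zinc finger gene PEG3 read 106 and 104 against 298 and 271 TPM (-1.42). IGF2, which is imprinted as well, was one of the 2 higher members. Ion channel and neuronal genes had 5 of 11 tested called higher (45.5%) and 2 lower (18.2%). The potassium channels KCND3 (1.89) and KCNH2 (1.15) and the sodium channel SCN3A (1.75) were higher.

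Circadian clock genes had 4 of 16 called higher (25%, near the 20.9% of all tested genes) and 2 lower (12.5%), with a median of 0.19. Without either resistant library 2 were higher, without vehicle replicate A 6, and without vehicle replicate B the median was 0.04. BHLHE40, a repressor of the clock, read 2.01 and 1.74 TPM in the resistant, 6.84 and 14.6 TPM in the vehicle and 23.1 and 22.1 TPM in the treated parental libraries (-1.95). PER2 read 7.39 and 7.36, 4.65 and 4.69, and 24.8 and 25.6 TPM in the same order (0.56), and TEF differed by 1.27.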
